A study of Homo sapiens with 8 samples.

Results

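The ID and SMAD feedback genes were followed in HCT116, a human colorectal cancer cell line. The 10 genes were chosen by symbol as responsive genes, inhibitors and related regulators of BMP and TGF-beta signaling, namely ID1, ID2, ID3, ID4, SMAD6, SMAD7, BAMBI, SKIL, BMP4 and TGIF1. Each has a row in both deposited tables of read counts, which hold 42125 genes for the TFAP2C knockdown (KD) and 23393 genes for the experiment labelled SAE2 kd. The titles of all 8 libraries name HCT116, and the methods describe cells of this line that stably carry a Tet-On shRNA against UBA2. UBA2 is the catalytic subunit of the SUMO E1 enzyme, and the labels call it SAE2. In the first experiment, an siRNA against TFAP2C, an AP-2 transcription factor, or a control siRNA was given for 48 hrs, with no doxycycline named. In the second, cells were kept for 5 days with DMSO or with 1 μg/mL of doxycycline (Dox), which switches on the shRNA. Each of the 4 groups has 2 replicates. Whether these were separate cultures is not stated, so the tests measure the spread between these libraries, which may be technical. No group had Dox without the shRNA, so an effect of Dox and an effect of the shRNA cannot be told apart.

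BMP ligands such as BMP4 bind receptor pairs that phosphorylate SMAD1, SMAD5 and SMAD9, and TGF-beta ligands act in the same way on SMAD2 and SMAD3. These SMADs join SMAD4 and switch on target genes. The ID genes are classic BMP targets, and their products bind E proteins, a class of basic helix-loop-helix factors, and keep them off DNA. Several other targets damp the signal that induced them, including SMAD6, which mainly restrains BMP signaling, SMAD7, which restrains both branches, and BAMBI, a receptor-like protein without a kinase domain. SKIL encodes SnoN and TGIF1 encodes a homeodomain protein, and both repress transcription together with SMADs. HCT116 is mismatch repair deficient and carries inactivating mutations of TGFBR2, so its response to TGF-beta ligands is impaired.

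Because TFAP2C binds DNA, the promoters of the members were searched for the AP-2 consensus GCCNNNGGC, in windows from 250 bases before to 50 bases after the RefSeq transcript start. All 10 members matched an entry, and the first listed entry of each was used. For BMP4 and TGIF1 this entry does not start where the main transcript starts, so their windows describe another start. The consensus was present in 4 of the 10 windows, SMAD6 with 3 matches and ID3, SKIL and BMP4 with 1 each. It was present in 23.2% of 35116 promoters of this length, counted over all entries. The motif is its own reverse complement, so both strands give the same matches. Those of SMAD6 began 199, 182 and 107 bases before the start site, and that of ID3 began 100 bases before it. GC content was 68% in the SMAD6 window, 59.7% in that of ID3 and 62.7% in that of ID1, which has no match. The GC-rich sequence GGCGCC, bound by BMP-activated SMADs, occurred in 3 members, BAMBI, SKIL and BMP4, and in 19.2% of all promoters. CAGAC on either strand, the short box bound by SMAD3 and SMAD4, occurred in 7 members and in 45.3% of all promoters. In BMP4 a GGCGCC match overlaps the AP-2 match. A match is a description of these letters, and binding was not measured here. The sequences that follow are those of ID1, which rose in the libraries labelled SAE2 kd, SMAD6, which has the most AP-2 matches, ID3, which had the lowest adjusted p in TFAP2C KD, and BMP4, which fell most clearly in the libraries labelled SAE2 kd. The BMP4 window is that of the other start named above, not of its main transcript. Capitals mark the AP-2 consensus.
ID1 promoter, GRCh38.p14, chr20:31605039-31605338, plus strand: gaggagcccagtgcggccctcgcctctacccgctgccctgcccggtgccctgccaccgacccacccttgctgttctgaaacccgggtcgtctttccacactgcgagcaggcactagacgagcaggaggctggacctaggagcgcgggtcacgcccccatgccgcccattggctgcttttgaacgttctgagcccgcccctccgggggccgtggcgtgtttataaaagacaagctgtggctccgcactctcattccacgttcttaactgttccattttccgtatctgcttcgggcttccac
SMAD6 promoter, GRCh38.p14, chr15:66701986-66702285, plus strand: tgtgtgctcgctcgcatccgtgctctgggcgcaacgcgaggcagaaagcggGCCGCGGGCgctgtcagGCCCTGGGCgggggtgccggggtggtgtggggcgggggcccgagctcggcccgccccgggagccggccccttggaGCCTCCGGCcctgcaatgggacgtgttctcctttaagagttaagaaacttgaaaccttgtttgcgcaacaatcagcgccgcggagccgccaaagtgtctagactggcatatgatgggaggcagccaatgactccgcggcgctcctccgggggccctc
ID3 promoter, GRCh38.p14, chr1:23559452-23559751, minus strand: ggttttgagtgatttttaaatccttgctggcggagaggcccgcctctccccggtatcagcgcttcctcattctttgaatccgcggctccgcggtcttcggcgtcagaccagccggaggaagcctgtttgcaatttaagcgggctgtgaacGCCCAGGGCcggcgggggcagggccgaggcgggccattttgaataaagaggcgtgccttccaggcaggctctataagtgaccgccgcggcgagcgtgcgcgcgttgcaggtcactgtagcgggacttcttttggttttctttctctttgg
BMP4 promoter, GRCh38.p14, chr14:53955001-53955300, minus strand: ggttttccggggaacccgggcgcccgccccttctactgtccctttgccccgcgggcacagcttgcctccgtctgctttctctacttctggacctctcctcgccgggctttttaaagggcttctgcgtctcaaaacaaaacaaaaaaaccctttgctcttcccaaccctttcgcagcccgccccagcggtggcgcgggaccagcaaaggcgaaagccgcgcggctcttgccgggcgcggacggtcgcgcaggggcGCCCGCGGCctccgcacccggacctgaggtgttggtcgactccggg

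Library totals lay between 18213739 and 24465109 counts, of which the 10 members took between 13181 and 21953. TFAP2C itself fell in TFAP2C KD by 2.34 on the log2 scale (adjusted p = 7.67e-06). UBA2 mRNA did not fall detectably with Dox, with a log2 fold change of -0.036 (95% confidence interval -0.15 to 0.078, adjusted p = 0.766), so these are named by their label, as the libraries labelled SAE2 kd. Among colon epithelial markers, KRT8 was abundant, while VIL1 was nearly absent in both experiments (0.11 and 0.027 CPM on average, where CPM are read counts scaled to library size by TMM). The summed level of these 6 markers was 1641 to 1701 CPM with control siRNA and 1801 to 1946 in TFAP2C KD. It was 1999 to 2026 without Dox and 2255 to 2325 in the libraries labelled SAE2 kd. In the latter 3 of the 6 passed the test at an adjusted p under 0.05, where 9.98% of all genes tested did. In TFAP2C KD none of the 6 passed, where 0.740% of all genes tested did. The part of these marker differences in the results below was not tested. Of 5 fibroblast markers, 3 had no read in any library, while COL1A1 was read at 44.9 CPM on average in the siRNA experiment and 17.1 CPM in the Dox experiment. The list summed to 45.6 to 47.6 CPM with control siRNA and 43.3 to 43.8 CPM in TFAP2C KD, and to 15.8 to 21.9 CPM without Dox and 14.9 to 16.2 CPM in the libraries labelled SAE2 kd. Immune markers summed to at most 1.13 CPM. Both TFAP2C KD libraries differed from each other more than other replicates did. The chi-square statistic between them was 9.09 per degree of freedom, against 2.55 to 2.76 in the other groups. In these bulk libraries, fewer cells with a transcript and less transcript per cell cannot be told apart.

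The levels of the members were first compared with each other per length. Levels here are RPKM, the CPM divided by the gene length in kilobases that each table gives. With control siRNA, ID1 was the highest member at 358 ± 16.4 RPKM (SD, n = 2), the 51st highest value among the 14991 genes tested. ID3 followed at 111 ± 3.12, BMP4 at 36.3 ± 1.01, TGIF1 at 14.9 ± 0.203 and ID2 at 8.40 ± 0.452 RPKM. BAMBI had 4.49 ± 0.288, SMAD6 3.75 ± 0.122, SKIL 1.59 ± 0.0662 and SMAD7 0.639 ± 0.188 RPKM. No neighbours in this order had overlapping replicates. ID4 was close to absent, with 3 or 4 reads in each siRNA library and 8 to 15 reads in the second experiment.

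The control cells of the second experiment had another order. ID1 was again highest at 181 ± 1.06 RPKM, but BMP4 (71.3 ± 5.90) and ID2 (60.1 ± 1.45) came next, ahead of TGIF1 (35.7 ± 1.153) and ID3 (34.9 ± 0.427). The replicates of TGIF1 and ID3 overlapped, and no other neighbours did. SKIL (3.89 ± 0.0823) stood above SMAD7 (3.68 ± 0.0953) here, while SMAD7 stood above SKIL in the libraries labelled SAE2 kd, at 4.65 and 4.12 RPKM. ID2 thus ranked below ID3 with control siRNA and above it in the control cells of the Dox experiment. Between the control groups, the RPKM of ID2 was 7.16 times higher in the Dox experiment and that of ID3 was 3.18 times higher in the siRNA experiment. ID1 was 1.97 times higher with control siRNA, while SMAD7 was 5.75 times, SKIL 2.44 times and TGIF1 2.40 times higher in the control cells of the Dox experiment. No test was made across the tables, since treatment, sequencing and gene annotation all differ between them and cannot be told apart. Gene length was nearly equal in both tables for ID1 (1.232 and 1.231 kb) and differed by 1.21 times for ID3. It differed by 2.71 times for SMAD6 (8.551 and 3.151 kb), so the levels of SMAD6 depend most on the annotation. CPM, without length, gave 4.41 times more ID2, 3.93 times more SMAD7, 2.28 times more SKIL and 1.31 times more TGIF1 in the Dox experiment. With control siRNA, SMAD6 was 1.72 times higher by RPKM and 4.66 times higher by CPM, and ID3 was 3.84 times higher by CPM.

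**Figure D1:**
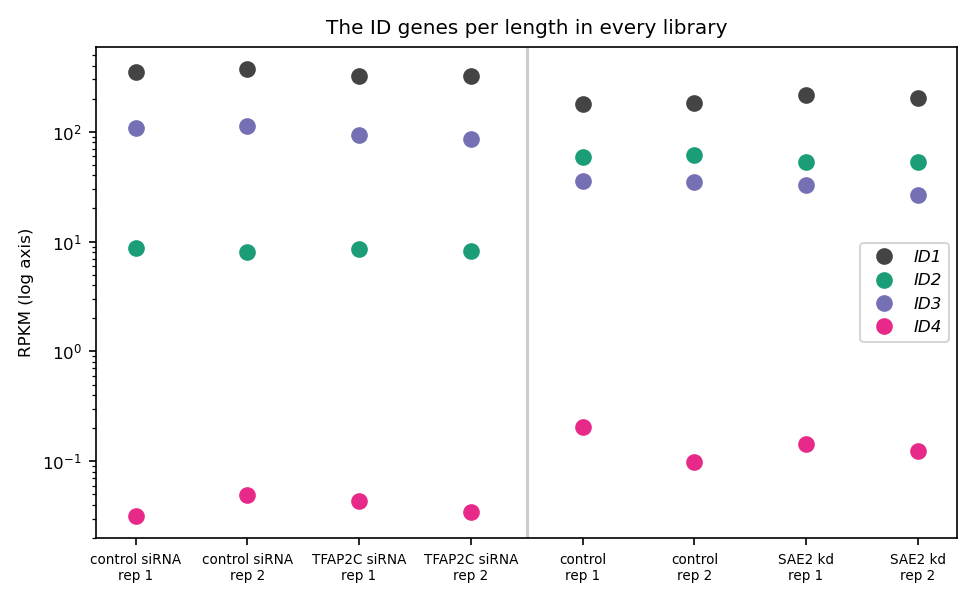
RPKM of the ID genes (log axis) in each of the 8 libraries, with 1 point per library and the siRNA experiment left of the line. ID1 was highest in every library, and ID2 lay below ID3 in the siRNA experiment and above it in the Dox experiment.

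No member passed the test in TFAP2C KD. Of the 10 members, 9 had enough reads to be tested, and ID4 did not. Across all genes, 0.740% were called at an adjusted p under 0.05 by edgeR's quasi-likelihood test, 0.260% higher and 0.480% lower. At an unadjusted p under 0.05 by edgeR there were 2 members, ID1 and ID3, where 12.6% of all genes tested were under it. The Wald test of DESeq2 also called 0 members. By sign, 8 of the 9 had a log2 fold change below 0, with a median of -0.16 against -0.0038 over all genes tested. The libraries of the groups did not overlap for 6 of the 9, ID1, ID3, SMAD6, SMAD7 and BAMBI below and TGIF1 above control, where 44.7% of all genes did not overlap.

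ID3 came closest to the threshold. It had 162 and 169 CPM with control siRNA and 140 and 129 CPM in TFAP2C KD, so both KD libraries lay below both controls. Its log2 fold change was -0.30 (standard error, SE, 0.071, adjusted p = 0.0907), or a difference of -18.8% with an interval from -27.0% to -9.71%. ID3 passed with no filter on low counts (adjusted p = 0.0248, edgeR) and with all 8 libraries in the same fit (adjusted p = 0.0484, edgeR). It also passed when either TFAP2C KD library was left out. This leaves the other as a lone sample assumed to vary like the controls. Without TFAP2C KD replicate 1 the value was -0.36 (adjusted p = 3.15e-05, edgeR), without replicate 2 it was -0.24 (adjusted p = 0.00381, edgeR), and over the 11 alternatives tried the adjusted p ranged from 3.15e-05 to 0.643.

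ID1 had 427 and 455 CPM with control siRNA and 399 and 392 CPM in TFAP2C KD. These do not overlap, but the log2 fold change of -0.16 (SE 0.067, adjusted p = 0.364) was not past the threshold. ID2 had 19.2 and 17.8 CPM against 18.7 and 17.9 CPM, with overlapping groups and a log2 fold change of -0.017 (interval -0.23 to 0.20). The sum of the ID genes lay between 464 and 491 RPKM in the control libraries and between 413 and 426 RPKM in TFAP2C KD. The share of ID1 in this sum was 74.7% and 75.3% with control siRNA and 76.0% and 77.0% in TFAP2C KD.

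The inhibitors gave no call either, and their intervals were wide where reads were few. SMAD7 had 62 and 81 reads with control siRNA and 57 and 56 reads in TFAP2C KD, or 2.54 and 3.88 CPM against 2.38 and 2.51 CPM. Control siRNA replicate 2 stood above the other 3 libraries. The log2 fold change was -0.38 with an interval from -0.86 to 0.10, and it was -0.070 without that library. SMAD6, the member with the most AP-2 matches in its promoter, had 32.8 and 31.3 CPM against 30.4 and 28.7 CPM, with a log2 fold change of -0.12 (interval -0.30 to 0.072). BAMBI had 9.15 and 10.0 CPM against 8.67 and 8.41 CPM, with a log2 fold change of -0.16 (interval -0.42 to 0.094).

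SKIL depended on a single library. It had 12.8 and 12.03 CPM with control siRNA, 7.55 CPM in TFAP2C KD replicate 1 and 12.04 CPM in replicate 2, so only replicate 1 was low. The log2 fold change of -0.35 (SE 0.17, adjusted p = 0.430) became -0.72 without replicate 2 (adjusted p = 3.22e-06, edgeR) and -0.044 without replicate 1. TGIF1 had 121 and 123 CPM against 139 and 125 CPM, a log2 fold change of 0.11 (interval -0.055 to 0.27, adjusted p = 0.580). Without TFAP2C KD replicate 2 it was 0.18 (adjusted p = 0.0369, edgeR). BMP4 had 114 and 110 CPM against 115 and 101 CPM, with overlapping groups and a log2 fold change of -0.055 (interval -0.22 to 0.11).

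**Figure D2:**
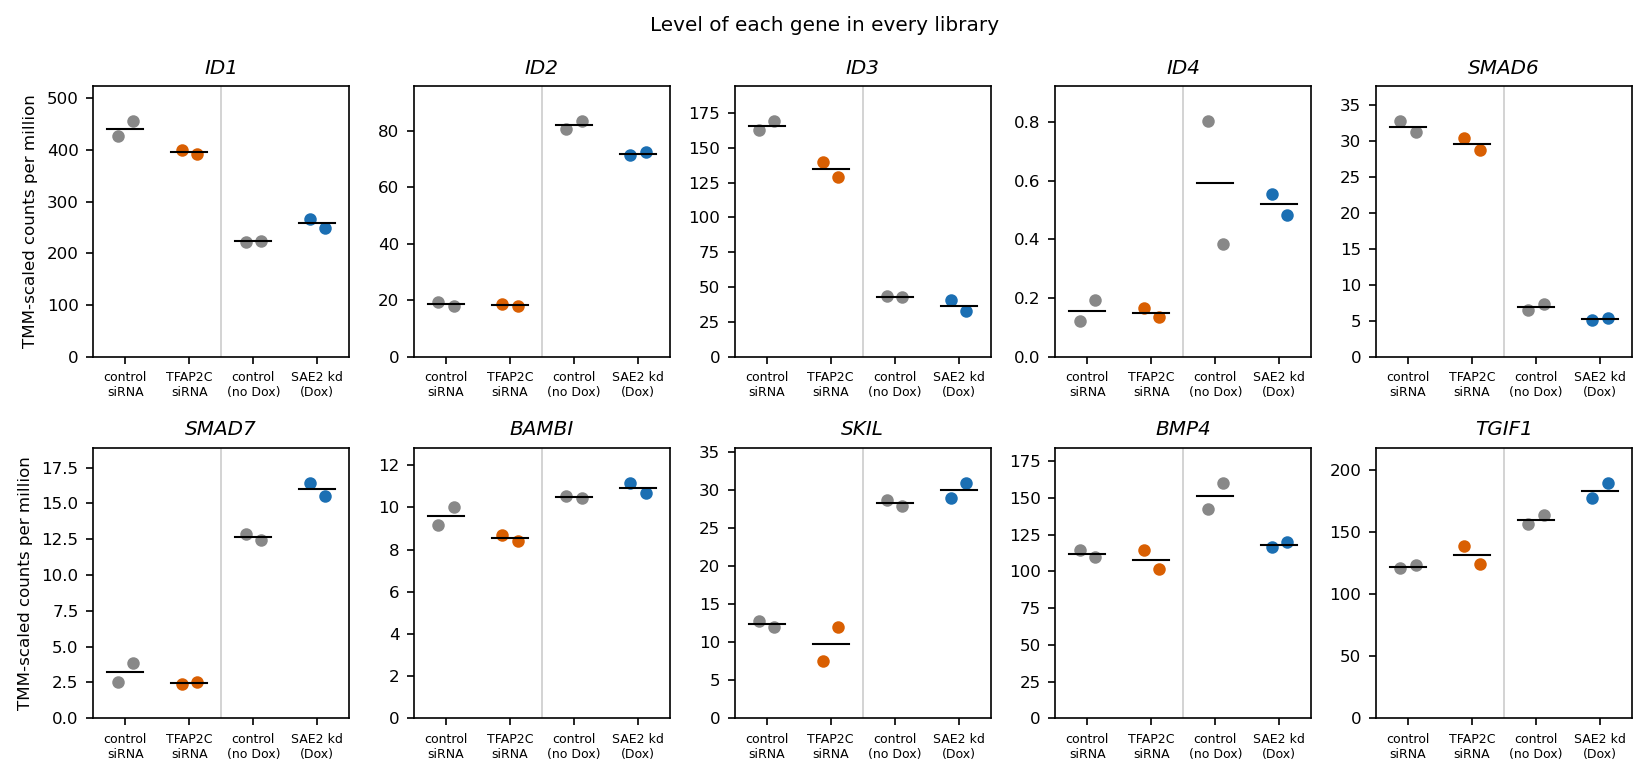
TMM-scaled CPM of each member in every library (1 point per library, line at the group mean, each panel from 0 on its own scale). Grey marks the controls, orange TFAP2C siRNA and blue the libraries labelled SAE2 kd, and the lower SKIL point in TFAP2C siRNA is replicate 1.

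In the libraries labelled SAE2 kd, members of the same family moved in opposite directions. ID1, SMAD7 and TGIF1 rose, and ID2 and BMP4 fell. All 10 members were tested, and these 5 passed at an adjusted p under 0.05, where 9.98% of all genes tested did, 5.52% higher and 4.47% lower. Leaving out any 1 of the libraries lowered the count. The Wald test of DESeq2 called 3 members, ID1, BMP4 and TGIF1, where it called 673 genes in all, against 1336 by edgeR. The groups did not overlap for 9 of the 10 members, the exception being ID4, and for 51.3% of all genes tested. The median log2 fold change of the members was -0.052, against -0.00042 over all genes tested.

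BMP4, the ligand of the list (hg19, chr14:54416455-54423554), had the lowest adjusted p. It had 143 and 160 CPM without Dox and 117 and 120 CPM in the libraries labelled SAE2 kd, so both of the latter lay below both controls. The log2 fold change was -0.36 (SE 0.058, adjusted p = 4.05e-05), or -22.0% with an interval from -28.2% to -15.4%. BMP4 remained called in each of the 11 alternatives, with values from -0.44 to -0.27.

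ID1 (hg19, chr20:30193086-30194317, with 2 exons in its main transcript) had 222 and 224 CPM without Dox and 267 and 250 CPM in the libraries labelled SAE2 kd. The rise was 15.8% (interval 7.99% to 24.2%), a log2 fold change of 0.21 (SE 0.050, adjusted p = 0.00387). Without replicate 1 of the labelled libraries it was 0.16 (adjusted p = 0.0585, edgeR), the only alternative that ended this call. ID2 went the other way in the same libraries, from 80.5 and 83.2 CPM to 71.5 and 72.2 CPM. Its log2 fold change of -0.19 (SE 0.060, adjusted p = 0.0417) was a narrow call. The ID2 call ended when any 1 of the 4 libraries was left out, with values from -0.21 to -0.16. It also ended under DESeq2 (adjusted p = 0.155), with all 8 libraries in the same fit (adjusted p = 0.135, edgeR) and with the replicate block (adjusted p = 0.0693, edgeR).

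ID3 had 43.5 and 42.8 CPM without Dox and 40.6 and 32.9 CPM in the labelled libraries. Replicate 2 was the lower one, and the log2 fold change of -0.23 (SE 0.081, adjusted p = 0.0645) did not pass. Without replicate 1 of the labelled libraries it was -0.39 (adjusted p = 0.000610, edgeR), and without replicate 2 it was -0.086. With library size alone in place of TMM, ID3 passed (adjusted p = 0.0259, edgeR). ID4, at 0.80 and 0.38 CPM against 0.56 and 0.48 CPM, could not be read at this depth (interval -1.12 to 0.79). The ID genes summed to 275 and 278 RPKM without Dox and to 303 and 283 RPKM in the labelled libraries. Within this sum the share of ID1 was 65.6% and 65.5% without Dox and 71.7% in both labelled libraries. The share of ID2 was 21.5% and 22.0% without Dox and 17.4% and 18.8% with it, and that of ID3 was 12.8% and 12.5% against 10.9% and 9.43%.

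The inhibitory SMADs also diverged in sign. SMAD7 (hg19, chr18:46446223-46477081) had 12.9 and 12.4 CPM without Dox and 16.4 and 15.5 CPM in the libraries labelled SAE2 kd. It rose by a log2 fold change of 0.34 (SE 0.10, adjusted p = 0.0337), or 26.4% with an interval from 9.05% to 46.5%. This call ended without control replicate 1 (adjusted p = 0.0615, edgeR), without control replicate 2 (adjusted p = 0.167, edgeR), without labelled replicate 1 (adjusted p = 0.170, edgeR), under DESeq2 (adjusted p = 0.267), with library size alone (adjusted p = 0.0512, edgeR) and with all 8 libraries in the same fit (adjusted p = 0.136, edgeR). The value itself stayed between 0.30 and 0.38. SMAD6 had 121 and 152 reads without Dox and 93 and 101 reads in the labelled libraries, or 6.46 and 7.28 CPM against 5.16 and 5.42 CPM. Both labelled libraries were below both controls, and the log2 fold change of -0.38 (SE 0.15, adjusted p = 0.110) did not pass.

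Of the corepressors, TGIF1 rose from 156 and 163 CPM to 177 and 190 CPM, a log2 fold change of 0.20 (SE 0.053, adjusted p = 0.0129). This TGIF1 call ended with all 8 libraries in the same fit (0.20, adjusted p = 0.0903, edgeR). It also ended without control replicate 1, at 0.17, and without labelled replicate 2, at 0.15. SKIL had 28.7 and 27.8 CPM against 29.0 and 30.9 CPM, with a log2 fold change of 0.085 (interval -0.079 to 0.25, adjusted p = 0.591). BAMBI, the decoy receptor, had 10.5 and 10.4 CPM against 11.2 and 10.7 CPM, with a log2 fold change of 0.059 (interval -0.18 to 0.29, adjusted p = 0.817).

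**Figure D3:**
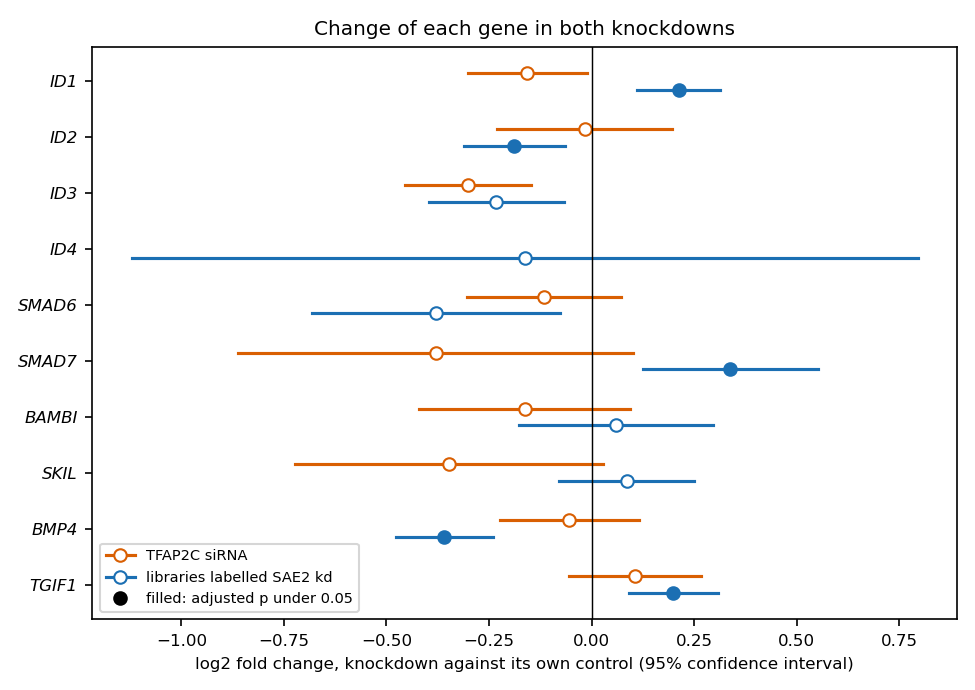
Log2 fold change of each member against its own control, with the 95% confidence interval from edgeR, in orange for TFAP2C siRNA and in blue for the libraries labelled SAE2 kd (filled where the adjusted p was under 0.05). In blue, ID1, SMAD7 and TGIF1 lie above 0 and ID2 and BMP4 below it, and no orange point is filled.

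Whether a member changed differently in the knockdowns was read from a joint fit of the 8 libraries, as the change in TFAP2C KD less that in the libraries labelled SAE2 kd. Of the 10 members, 1 passed, ID1, where 2.37% of all genes tested did. Its difference was -0.38 (SE 0.079, adjusted p = 0.0168), with log2 fold changes of -0.16 in TFAP2C KD and 0.21 in the labelled libraries. The call ended without control siRNA replicate 2 (adjusted p = 0.187, edgeR), control replicate 1 (adjusted p = 0.104, edgeR), control replicate 2 (adjusted p = 0.0915, edgeR) or labelled replicate 1 (adjusted p = 0.150, edgeR). SMAD7 had the largest difference at -0.73 (interval -1.23 to -0.23), which did not pass (adjusted p = 0.148), and that of BMP4 was 0.29 (interval 0.074 to 0.51, adjusted p = 0.188). For ID3 the changes of -0.30 and -0.23 differed by -0.082 (interval -0.33 to 0.17). How the cells were handled and sequenced is part of these differences.

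Beyond the members, 76 other genes of the pathway were followed as a list by role. In the TFAP2C KD experiment 75 of them had a row, the exception being the ligand TGFB1, which could not be examined there. In TFAP2C KD, 53 were tested, of which 1 rose and 1 fell, where 0.740% of all genes tested were called. The median log2 fold change of these 53 was -0.063. TGFBR1, the kinase receptor for TGF-beta, fell from 54.8 and 55.2 CPM to 34.9 and 37.9 CPM, a log2 fold change of -0.60 (SE 0.081, adjusted p = 0.00501). It was the only one of 11 receptors that passed. CDKN1A, a cell cycle inhibitor that is also a p53 target, rose from 444 and 472 CPM to 744 and 675 CPM (log2 fold change 0.63, adjusted p = 0.00169). None of the 6 SMADs, 6 ligands, 6 extracellular antagonists, 11 intracellular regulators and 2 E proteins tested passed. Without TFAP2C KD replicate 2, the count of the list was 15 genes, and without replicate 1 it was 4, while all genes called numbered 2825 and 537 in these fits, against 111 with every library.

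In the libraries labelled SAE2 kd, 53 genes of the list were tested, of which 8 rose and 1 fell, where 5.52% of all genes tested were called higher and 4.47% lower, and the median was 0.0062. BMPR2, the type II receptor for BMP ligands, fell from 42.7 and 41.2 CPM to 31.5 and 34.9 CPM (log2 fold change -0.34, adjusted p = 0.00247). SMAD3, which carries the TGF-beta signal, rose from 152 and 145 CPM to 205 and 174 CPM (log2 fold change 0.35, adjusted p = 8.50e-05). SMAD1, SMAD5 and SMAD9, which carry the BMP signal, did not pass. SMAD1 had 0.12 (adjusted p = 0.326) and SMAD5 had -0.11 (adjusted p = 0.283). SMAD9, at low levels of 3.42 and 2.92 CPM against 2.05 and 2.31 CPM, had -0.53 (adjusted p = 0.129, edgeR).

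Among the target genes in the labelled libraries, HEY1, a BMP and Notch target, had the largest log2 fold change at 1.11 (SE 0.28, adjusted p = 0.00868), from low levels of 1.23 and 0.959 CPM to 2.78 and 1.93 CPM. It was not called by DESeq2, without control replicate 2 or without labelled replicate 1. LTBP2, a matrix protein related to those that bind latent TGF-beta, and KLF10, a TGF-beta induced factor, rose by 0.56 and 0.28 on the log2 scale (adjusted p = 0.00209 and adjusted p = 0.00113). LTBP2 was not called by DESeq2, and KLF10 was not called without control replicate 2. Of the 10 target genes tested, 3 rose and none fell by edgeR at an adjusted p under 0.05. The BMP target MSX2 had -0.23 (adjusted p = 0.0731).

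Among 11 intracellular regulators, 3 rose. PMEPA1, a membrane protein that sequesters SMAD2 and SMAD3, went from 2.94 and 2.83 CPM to 5.50 and 3.92 CPM (log2 fold change 0.70, adjusted p = 0.0161). SMURF2, a ubiquitin ligase that SMAD7 brings to receptors, rose by 0.22 (adjusted p = 0.00110), and HIPK2, a nuclear kinase, by 0.16 (adjusted p = 0.0396). Neither PMEPA1 nor HIPK2 was called by DESeq2, without control replicate 2 or without labelled replicate 1. HIPK2 was also not called with library size alone or with all 8 libraries in the same fit. CRIM1, which binds BMPs, rose by 0.27 (adjusted p = 0.00463) as the only called gene of 5 extracellular antagonists tested. CRIM1 was not called without control replicate 2. None of 9 other ligands passed, with 7 of the 9 below 0 and a median of -0.24. The E proteins TCF3 and TCF12, to which ID proteins bind, had log2 fold changes of -0.013 (interval -0.11 to 0.089) and 0.058 (interval -0.059 to 0.17). The list gave 5 calls by DESeq2, 4 without control replicate 2 and 14 without labelled replicate 2, and BMPR2, SMAD3 and SMURF2 were called in each of these.

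**Figure D4:**
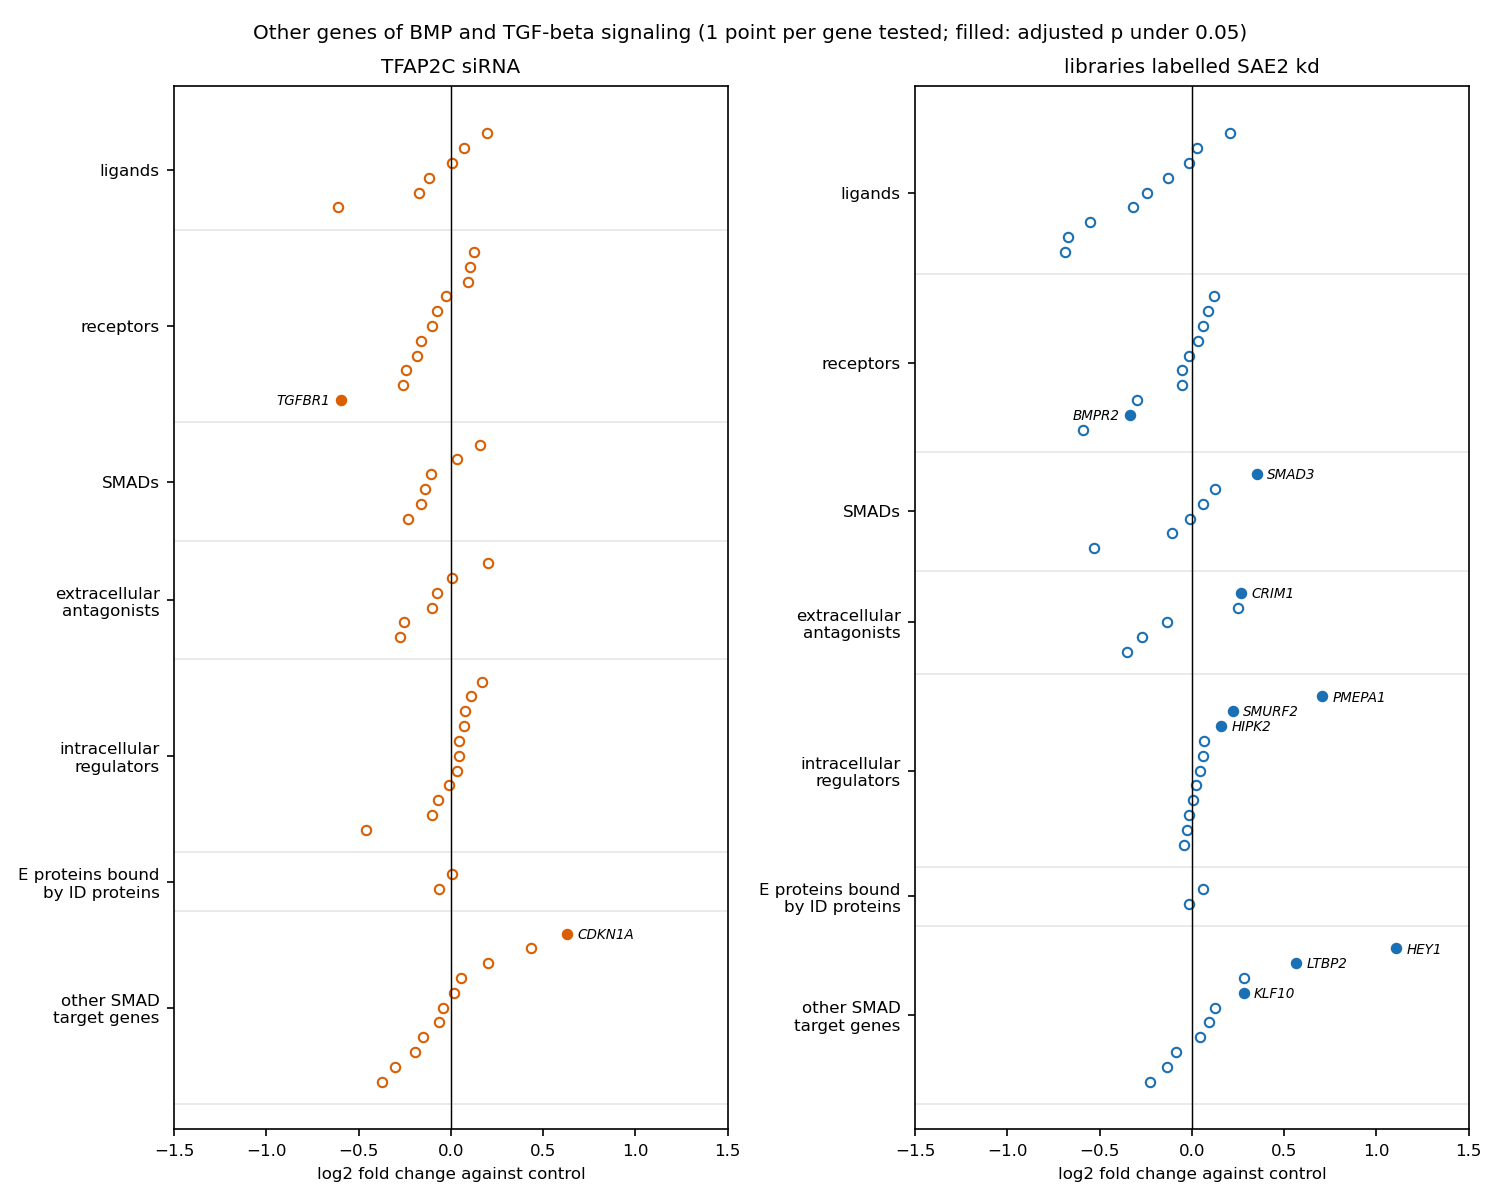
Log2 fold change of the pathway genes tested, grouped by role, with 1 point per gene and those at an adjusted p under 0.05 filled and named. In the libraries labelled SAE2 kd 8 of the 9 filled points lie above 0, and in TFAP2C siRNA 2 points are filled.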

How the data were processed

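The labels and methods describe mRNA-seq with single-end reads, aligned by Tophat2 to hg19 and counted on RefSeq genes by HTSeq (version 0.9.1 in the submitters' processing notes). The strand setting is not given in the sources used here. The authors deposited read counts per gene, not normalized, in a table for each experiment. The table of TFAP2C KD has positions of GRCh38, so the description of hg19 does not match it. That of the SAE2 kd libraries has positions of hg19. Each comparison was fitted within its own table, and the difference between the knockdowns in a joint fit of the 8 libraries over the 13179 genes matched by symbol and tested. Rows that overlap a member on the other strand were limited to ID2-AS1, with at most 21 reads. On the same strand AC013564.1 overlaps SMAD6 in the siRNA experiment, with at most 3 reads.

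In R 4.3.3 with edgeR 4.0.16, genes were filtered by filterByExpr, scaled by TMM and tested by the quasi-likelihood test with Benjamini-Hochberg adjustment over all genes tested. CPM are TMM-scaled. All tests are two-sided. With 2 libraries a group, exact tests on single genes cannot reach 0.05. DESeq2 1.42.0 was an alternative. Code was tested on simulated data. The members and lists were chosen with earlier results of these data known. Named were all members, the targeted genes and every pathway gene that was called with groups that did not overlap. Beside these, SMAD1, SMAD5, SMAD9, MSX2, TCF3 and TCF12 were named, chosen after their values were seen. Promoter sequences are from RefSeq (GRCh38.p14). A gene of the pathway list was left out of the list and is not reported here.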

Additional observations from a re-analysis of the deposited data

Results flagged for a closer look

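ID1 passed the test of the difference between the experiments. Its log2 fold change in TFAP2C KD less that in the libraries labelled SAE2 kd was -0.38 (adjusted p = 0.0168, edgeR). It did not pass in 5 of 14 alternatives, 4 of them with a library left out, where the adjusted p reached 0.187 (edgeR). The libraries were 427 and 455 CPM against 399 and 392 CPM in the siRNA experiment and 222 and 224 CPM against 267 and 250 CPM in the Dox experiment.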

How the results depend on the processing

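Members called in TFAP2C KD numbered 0, where 111 genes were called in all. With no filter on low counts 1 member was called, where 398 genes were. With all 8 libraries in the same fit 1 member was called, where 271 genes were. In the libraries labelled SAE2 kd, 5 members were called, where 1336 genes were. DESeq2 called 3 members there, where it called 673 genes, and the fit of all 8 libraries called 2, where 696 genes were. For the difference between the knockdowns, 1 member was called, where 313 genes were. With no filter 2 were called, where 607 genes were, and with the replicate block 0, where 173 genes were. Each of these 3 counts of members also moved when some of the libraries were left out. Pathway genes called in TFAP2C KD numbered 2, and 2 to 15 with each library left out. In the libraries labelled SAE2 kd they numbered 9, but 5 by DESeq2 and 4 to 14 with each library left out. Of 347 values of single members under alternatives, 303 kept their direction and side of the threshold, 22 lost the call, 14 gained it and 8 changed sign, each of these with a library left out. The ranges were then -0.079 to 0.040 for ID2 and -0.15 to 0.034 for BMP4 in TFAP2C KD, -0.62 to 0.43 for ID4 in the libraries labelled SAE2 kd, and -0.23 to 0.084 for ID3 and -0.47 to 0.57 for ID4 in the difference. The cause of these shifts was not tested.

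The replicate numbers were not taken as pairs, since the replicate 1 less replicate 2 deviations of the groups correlated at -0.14 in the siRNA experiment and 0.074 in the Dox experiment. With the replicate block, members called remained 0 in TFAP2C KD, where 172 genes were called in all. They numbered 5 in the libraries labelled SAE2 kd, where 1308 genes were called. There ID2 was no longer called (adjusted p = 0.0693, edgeR) and ID3 was (adjusted p = 0.0444, edgeR). The difference of ID1 was not called with the block (adjusted p = 0.0850, edgeR). With crossed numbers, chosen after seeing the data, 1 member and 3 pathway genes were called in TFAP2C KD, where 467 genes were called in all. Reads were fewest for ID4, SMAD7 and SMAD6, with as few as 3, 56 and 93 in a library.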

Other observations

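The genes whose pattern over the 8 libraries was most like that of ID1, by Euclidean distance of log2 CPM less the mean of the own control group, were SLCO4A1 (0.065), P4HTM (0.072) and CELSR1 (0.073), of 11471 genes. For SMAD7 they were CHMP4C (0.32), C7orf25 (0.34) and HOXB4 (0.38). These distances are a description.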
